A study of Mus musculus with 4 samples.

Results

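Within heart muscle, the transcript of Nppa, which encodes atrial natriuretic peptide, was unevenly spread, and the muscle spots richest in it were compared here with those poorest in it. Spots were chosen by their own counts on Visium arrays, which capture polyadenylated RNA from a tissue section on a grid of barcoded spots. A spot is a small region that can hold several cells of different types. Muscle spots were selected on the summed UMIs (counts of unique molecules) of 12 cardiomyocyte genes, Myh6, Tnnt2, Tnni3, Actc1, Myl2, Myl3, Pln, Mb, Ckm, Tcap, Ryr2 and Ttn, as a share of non-mitochondrial UMIs, and counted as muscle at or above 0.5 times the section's 90th percentile of this share. Within each section the top 10% of muscle spots by Nppa UMIs per non-mitochondrial UMI formed the Nppa-high class and the lower 50% the Nppa-low class. Of 5996 spots flagged as tissue, 3188 were muscle, and of these 320 were Nppa-high, 1755 Nppa-low and 1113 in between.

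The 4 sections came from 4 hearts of mice aged 8 to 12 weeks, all carrying Collagen1a1-GFP, a reporter transgene that labels cells with an active collagen gene. One heart was healthy (control, labelled female). The others were taken after myocardial infarction, made by permanent ligation of the left anterior descending coronary artery, 1 at 3 days (3 dpi, labelled female) and 2 at 5 days (5 dpi, 1 labelled female and 1 labelled male). The control and 3 dpi were 1 heart each, and p-values rest on how the difference between the classes varied from section to section. The Y-linked transcripts looked at went against the labels of both 5 dpi sections, with 718 UMIs where the label says female and 1 where it says male, so these names stand for the labels only, and results with either section left out are given in the closing part. Kept spots, with at least 500 UMIs, held a median of 4980.5 UMIs in control tissue, 5994 at 3 dpi, 6937 in the 5 dpi female section and 6532 in the 5 dpi male section. The 12 cardiomyocyte genes, which stand for the labelled tissue, made up 10.0% of non-mitochondrial UMIs in Nppa-high spots of the control, 6.28% at 3 dpi, 5.29% in the 5 dpi female section and 5.83% in the 5 dpi male section, against 10.1%, 9.99%, 8.77% and 8.84% in Nppa-low spots. The matrix of the 5 dpi male section also held 623 spots not flagged as tissue, which were left out.

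Atrial and B-type natriuretic peptides are hormones that heart muscle cells release when the wall is stretched, and they act on kidney and vessels to lower blood volume and pressure. Both are cut from precursors, by the membrane protease corin for the atrial and largely by furin for the B-type peptide, they signal through the receptor Npr1, and the receptor Npr3 clears them. In the adult ventricle Nppa is low and restricted, and it is a classic gene of the fetal programme that overloaded or injured ventricular muscle takes up again. Nppa and Nppb lie next to each other in the mouse genome.

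In the RefSeq annotation of GRCm38.p6, Nppb covers chr4:147985786-147987205 and Nppa chr4:148000722-148002074, both on the plus strand, with 13516 bases between them. The sequence just upstream of Nppa is shown because the spots were ranked by this gene, and a stretch near the start of Nppb because it is the neighbour measured beside it. Capitals mark matches to GATAA, the core read by GATA factors, and to TATAAA, the TATA box, on either strand. The Nppa sequence is the 250 bases before the annotated start, chr4:148000472-148000721, and the Nppb stretch is chr4:147985804-147985833, which opens just before the first of its GATAA matches, lies before the start site that the promoter table uses for Nppb (base 147985900) and is in the first exon of a longer predicted transcript.
Nppa: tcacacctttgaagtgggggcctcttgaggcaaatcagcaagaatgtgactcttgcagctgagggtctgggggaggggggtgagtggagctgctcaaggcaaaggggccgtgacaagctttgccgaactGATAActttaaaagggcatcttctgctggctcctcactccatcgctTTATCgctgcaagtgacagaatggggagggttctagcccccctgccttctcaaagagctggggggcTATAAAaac
Nppb: ctGATAAatcagaGATAAccccacccctac
GATAA was found, on either strand, in the 250 bases before 22.6% of 32851 annotated gene starts and TATAAA in 12.4%, and TATAAA matched 9 bases before the Nppa start and 31 bases before the Nppb start site of that table, beyond the stretch shown. GATAA matched at 121 and, on the other strand, 75 bases before the Nppa start, and at 94 and 83 bases before that Nppb start site. CATTCC, the core read by TEAD factors, was in 12.6% of promoters, among them that of Nppb on the other strand, and not in the Nppa window. AAGTG, the core of NKX2-5 sites, was in 40.7% of promoters and at 239 and 65 bases before the Nppa start. These matches describe letters and were not tested as sites.

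Nppa itself, which set the classes, differed widely in level between the hearts. Levels are given as CPM, UMIs of a gene per 1000000 non-mitochondrial UMIs in the summed spots of a class. In the control, 63.8% of muscle spots had no Nppa UMI, so the Nppa-low class held 743 spots, all without a UMI, and the 117 Nppa-high spots had a median of 5 UMIs and together 3201 CPM. At 3 dpi the 85 high spots had 26740 CPM and the 422 low spots 2235 CPM. In the 5 dpi female section the 45 high spots had 45977 CPM and the 225 low spots 4067 CPM. In the 5 dpi male section the 73 high spots had 37661 CPM and the 365 low spots 1028 CPM. The low spots of the 5 dpi female section thus had more Nppa than the high spots of the control, and in the high spots of the 5 dpi female section 4.60% of all non-mitochondrial UMIs came from this gene. The high class held 69.4% of the Nppa UMIs of control muscle, 36.0% at 3 dpi, 37.6% in the 5 dpi female section and 57.8% in the 5 dpi male section.

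The limits cut through a continuous range. The poorest high spot and the richest spot below the limit had 1068 and 1064 CPM in control muscle, 21142 and 21043 CPM at 3 dpi, 30947 and 30881 CPM in the 5 dpi female section, and 22026 and 21882 CPM in the 5 dpi male section. Around the lower limit, the poorest middle spot and the richest low spot had 5506 and 5503 CPM at 3 dpi, 8666 and 8560 CPM in the 5 dpi female section, and 2756 and 2740 CPM in the 5 dpi male section. In the control the lower limit was at 0, so there any spot with a UMI was above it. The richest muscle spot of all had 86875 CPM, in the 5 dpi male section.

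**Figure D1:**
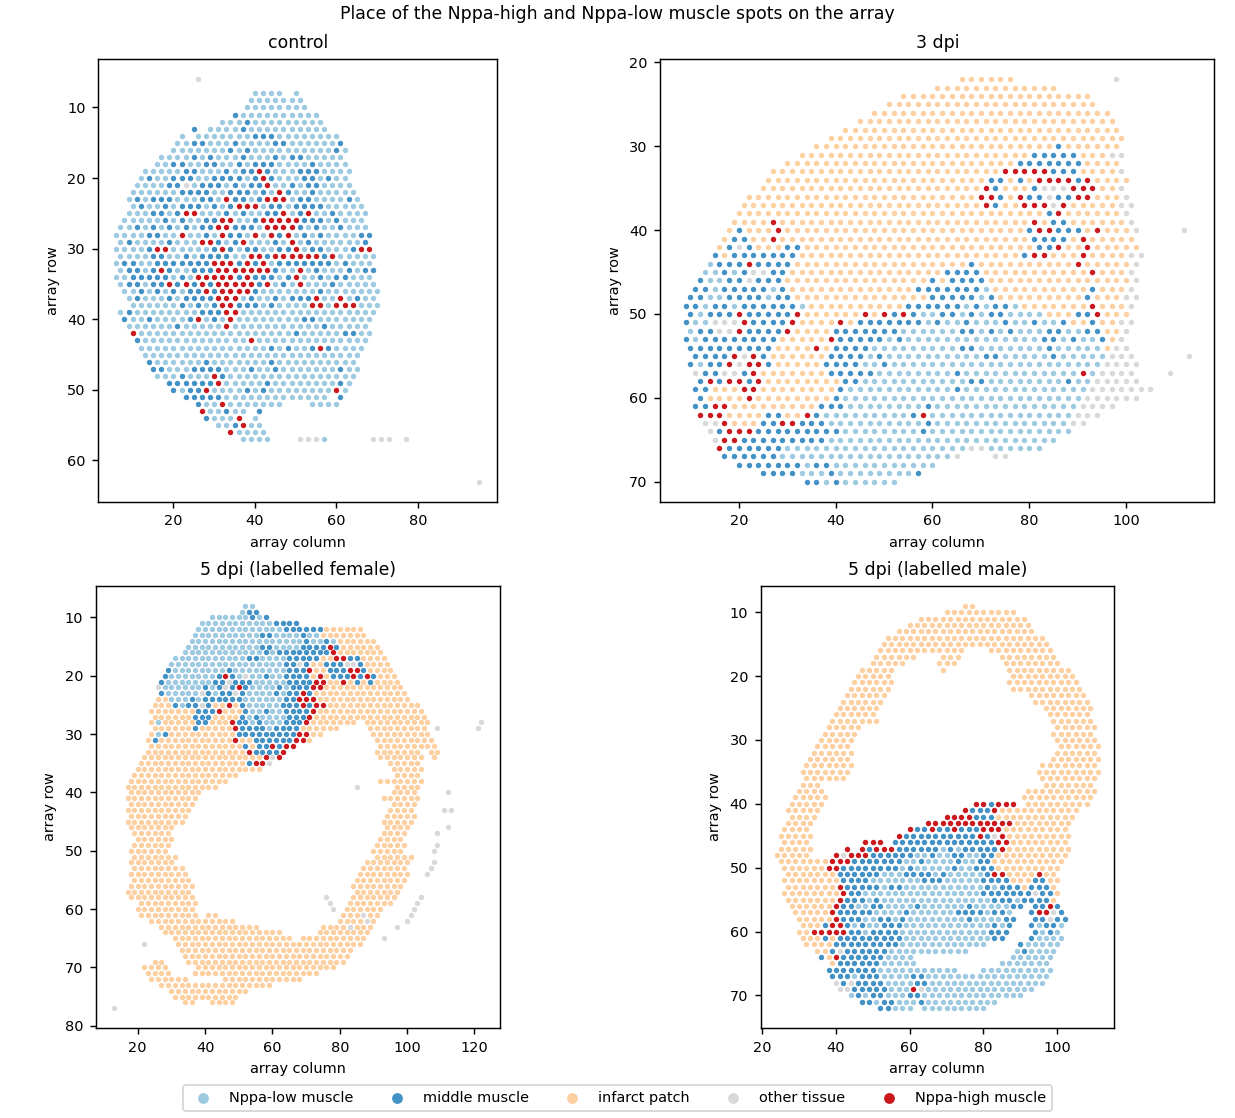
Spots flagged as tissue in each section by array column and row, coloured as Nppa-high muscle (red), middle and Nppa-low muscle (dark and light blue), infarct patch (orange) or other tissue (grey). The high spots of the control gather in the middle of the section, and those of the infarcted sections line the infarct and, at 5 dpi, the enclosed blank area.

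The high spots lay in a few larger patches and many small ones, in places that differed between the hearts. They fell into 35 connected patches in control muscle, 29 at 3 dpi, 17 in the 5 dpi female section and 12 in the 5 dpi male section, of which 20, 14, 10 and 5 were single spots and 3 in each section held 5 or more. In the control the largest patches were central and held 40 spots in array rows 31 to 41 and columns 26 to 43, and 20 spots in rows 25 to 31 and columns 42 to 55. At 3 dpi the largest patches were 15 spots in rows 33 to 36 and columns 75 to 93, 12 in rows 61 to 66 and columns 12 to 22, and 10 in rows 55 to 60 and columns 18 to 24, on opposite sides of the section and next to the infarct. In the 5 dpi female section, patches of 10, 8 and 5 spots ran along the edge where muscle met infarct, in rows 20 to 34 and columns 62 to 75. In the 5 dpi male section, patches of 27 spots (rows 41 to 47, columns 65 to 87) and 17 spots (rows 46 to 50, columns 38 to 55) formed a band along the rim of muscle that faced the blank area, and a patch of 13 lay against the infarct in rows 53 to 60 and columns 34 to 42. Of the muscle neighbours of a high spot, 39.1% were high themselves in control muscle, 47.0% at 3 dpi, 43.4% in the 5 dpi female and 57.7% in the 5 dpi male section, where high spots made up 10.0%, 10.1%, 10.0% and 10.0% of the muscle.

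In the infarcted hearts the high spots sat against the infarct, taken as connected patches of at least 10 kept spots below the muscle limit. Their mean distance to it was 1.56 ± 1.43 steps (SD over 85 spots, 1 step being the next spot) at 3 dpi, 1.62 ± 1.03 (45 spots) in the 5 dpi female section and 3.78 ± 3.37 (73 spots) in the 5 dpi male section. The low spots lay at 7.58 ± 3.79, 7.11 ± 3.51 and 10.6 ± 3.79 steps. Within 2 steps of the infarct were 89.4%, 80.0% and 52.1% of the high spots, but 8.06%, 9.33% and 0.274% of the low spots. The difference, high minus low, was −6.11 ± 0.67 steps (SD, n = 3 sections), negative in 3 of 3 sections, and the exact two-sided sign-flip test gave p = 0.25, the smallest that 3 sections allow. Not every high spot was at the border: 24 of 73 in the 5 dpi male section, 4 of 85 at 3 dpi and 1 of 45 in the 5 dpi female section lay more than 4 steps away.

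**Figure D2:**
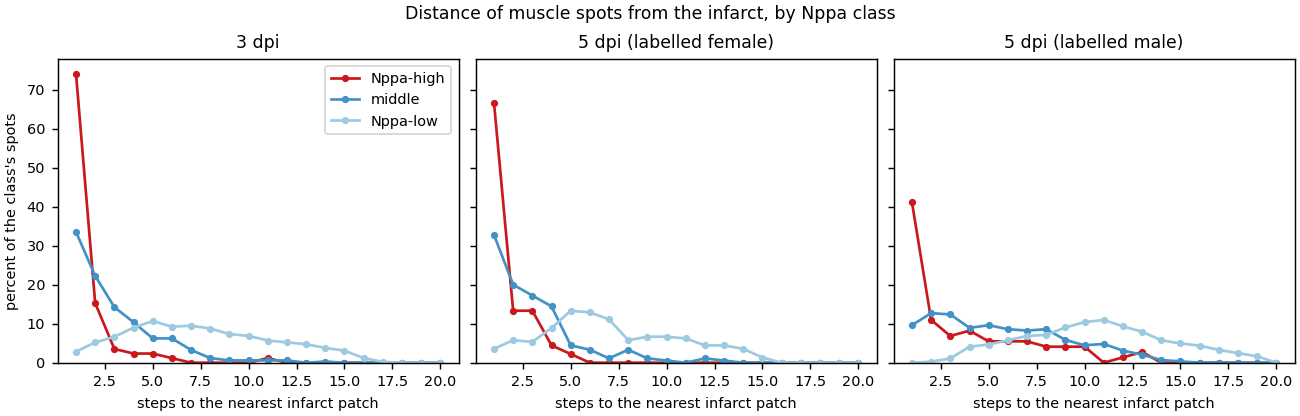
Percent of the spots of each Nppa class at each distance, in steps, from the nearest infarct patch in the 3 infarcted sections. High spots peak at the first step, low spots spread from about 4 steps outwards, and the 5 dpi male section has a longer tail of high spots.

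High spots also lined a second boundary. In both 5 dpi sections the tissue surrounds an area not flagged as tissue, of 781 array positions in the female and 616 in the male section. High spots within 2 steps of this area numbered 35 of 73 (47.9%) in the 5 dpi male section and 11 of 45 (24.4%) in the female section, against 0 low spots in either and 7.82% and 4% of all muscle spots. The area of the male section was not free of RNA: 193 of the unflagged spots lay in it, with a median of 6435 UMIs, so its outline depends on the flags. In the control, with no such area, high spots lay deeper in the tissue than low spots, at 10.5 ± 3.98 against 5.09 ± 3.53 steps from the tissue edge, and 6.84% against 29.5% lay within 2 steps of it. Edge here means the nearest position not flagged as tissue, so at 5 dpi it includes the rim of the enclosed area. The 5 dpi distances are thus not depth below the outer surface alone. Across the 4 sections the distance to the edge differed by 1.28 ± 2.86 steps (SD), with more in the high class in 3 of 4 sections (exact two-sided sign-flip p = 0.625, where 4 sections allow no less than 0.13). Without the control it was −0.0913 steps.

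Around the high spots Nppa fell off within a few steps, whereas Nppb and Myh7 declined more slowly. In the 5 dpi male section Nppa, which set the classes, was at 37661 CPM in high spots, 13465 at 1 step, 7423 at 2 steps and 717 CPM at 9 or more steps. At 3 dpi it went from 26740 to 13873, 9658 and 1545 CPM over the same distances. Nppb at 3 dpi went from 523 to 439, 396 and 119 CPM, and in the 5 dpi male section from 389 to 279, 228 and 77.8 CPM. In the control, Nppb was flat, with 235, 243 and 239 CPM at 0, 1 and 2 steps and 176 CPM at 9 or more. Since nearness to a high spot follows from the ranking by Nppa, these profiles are a description.

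**Figure D3:**
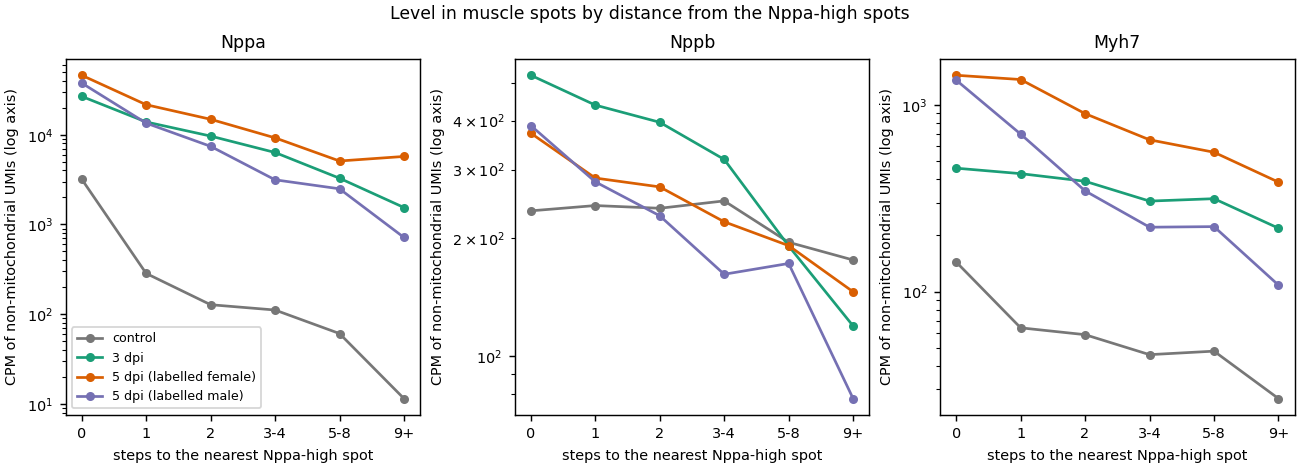
CPM (log axis) of Nppa, Nppb and Myh7 in muscle spots summed by steps to the nearest Nppa-high spot, 1 line per section. Nppa drops steeply in all 4 sections, Nppb declines in the 3 infarcted sections and stays level over the first 2 steps in the control, and Myh7 is lowest at 9 or more steps in each section.

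Between the classes, genes of the fetal programme, of cell stress and of activated fibroblasts were higher in Nppa-high spots, and genes of mitochondrial energy supply were lower. UMIs were summed per class and section, and the 8 sums were compared by the quasi-likelihood test of edgeR, with the section as a block and a threshold of 0.05 on Benjamini-Hochberg adjusted p-values. Of 6750 genes tested, 403 (5.97%) were higher and 467 (6.92%) lower in the high class, with Nppa and the 12 share genes left out. With plain CPM in place of TMM factors, which shift log2 values by 0.13, 657 were higher and 335 lower. Fold changes below are log2 values, high minus low, after TMM scaling. In such sums, fewer cells of a type and less RNA per cell cannot be told apart, and the lower share of cardiomyocyte genes in the high class of the infarcted sections moves with every comparison below.

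Nppb, the neighbour of Nppa, was higher in the high spots of the infarcted hearts. It had 235 CPM in high and 217 CPM in low spots of the control, 523 and 199 CPM at 3 dpi, 372 and 166 CPM in the 5 dpi female section, and 389 and 124 CPM in the 5 dpi male section. The high values of the 3 infarcted sections did not overlap their low values, while in the control the counting intervals (95%, exact Poisson, counting error only) overlapped, 185 to 295 against 199 to 236 CPM. Nppb rose by 0.98 (SE 0.18, edgeR quasi-likelihood, Benjamini-Hochberg adjusted p = 0.000937, n = 4 sections), and by 0.81 to 1.26 with 1 section left out. The top 10% of muscle spots by Nppb held 22.4% of the Nppa-high spots at 3 dpi and 20.0% and 30.1% in the 5 dpi female and male sections. In the control they held 10.3%. Beside these, they made up 10.1% of all muscle spots at 3 dpi and 10.0% in each other section. The same overlap shares hold the other way, since both sets were of equal size. Single spots carried few Nppb UMIs: the 45 high spots of the 5 dpi female section held 82 together.

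Of the processing and receptor genes of the system, 0 passed the main test over the 4 sections. Of its 12 genes on the list, 7 passed the filter on low counts, 1 was higher (Nppb) and 0 were lower, with a median log2 change of 0.03 beside 0.01 over all genes tested. With plain CPM 2 of 7 were higher, as among spots 2 or more steps from the tissue edge. Corin had 132 and 107 CPM in high and low spots of the control, 38.2 and 69.4 CPM at 3 dpi, 68.0 and 65.3 CPM in the 5 dpi female section, and 47.8 and 71.7 CPM in the 5 dpi male section. Its values overlapped between classes (log2 change −0.34, SE 0.21, edgeR quasi-likelihood, Benjamini-Hochberg adjusted p = 0.327). Without the control Corin was lower in the high class (−0.67, adjusted p = 0.0355 in the same edgeR test). Furin was higher in the high class in 4 of 4 sections, from 84.7 against 50.9 CPM in the control to 145 against 101 CPM in the 5 dpi female section, and did not pass the test (0.44, SE 0.16, edgeR quasi-likelihood, Benjamini-Hochberg adjusted p = 0.0755). Npr1 was at 9.86 to 21.9 CPM and Npr2, the receptor of the C-type peptide, at 4.53 to 34.5 CPM in all 8 sums. Nppc, the C-type peptide gene, had 1 UMI in all 8 sums together.

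The other measured genes of the fetal programme went with Nppb. Of the 7 genes on that list, 4 were tested and all 4 were higher, with a median of 0.96. Myh7, the slow myosin heavy chain of fetal ventricle, had 144 and 44.7 CPM in high and low spots of the control, 458 and 252 CPM at 3 dpi, 1441 and 466 CPM in the 5 dpi female section, and 1357 and 144 CPM in the 5 dpi male section. Each high value was above the low value of its own section, in the control too (log2 change 1.74, SE 0.24, edgeR quasi-likelihood, Benjamini-Hochberg adjusted p = 7.35e-05). Acta1, skeletal alpha-actin, rose by 0.53, and Ankrd1, a titin-bound protein that responds to stretch, by 0.93, with 4601 against 1462 CPM at 3 dpi and 502 against 423 CPM in the control. Acta1 no longer passed without any 1 of the 3 infarcted sections (0.41 to 0.57), nor did Ankrd1 without 3 dpi (0.73) or without the 5 dpi male section (0.73). The 3 genes that did not pass the filter had few counts: Tnni1 had 7 UMIs in all 8 sums, Myl4 had 50 and Myl7, the atrial light chain, had 0. Sln, another atrial gene, also had 0 UMIs, Bmp10 had 1, and of the 6 atrial markers 2 were tested and 0 passed. The atrial list summed to 167 to 394 CPM in high and 120 to 248 CPM in low spots, most of it from Pam, which ventricle also expresses.

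**Figure D4:**
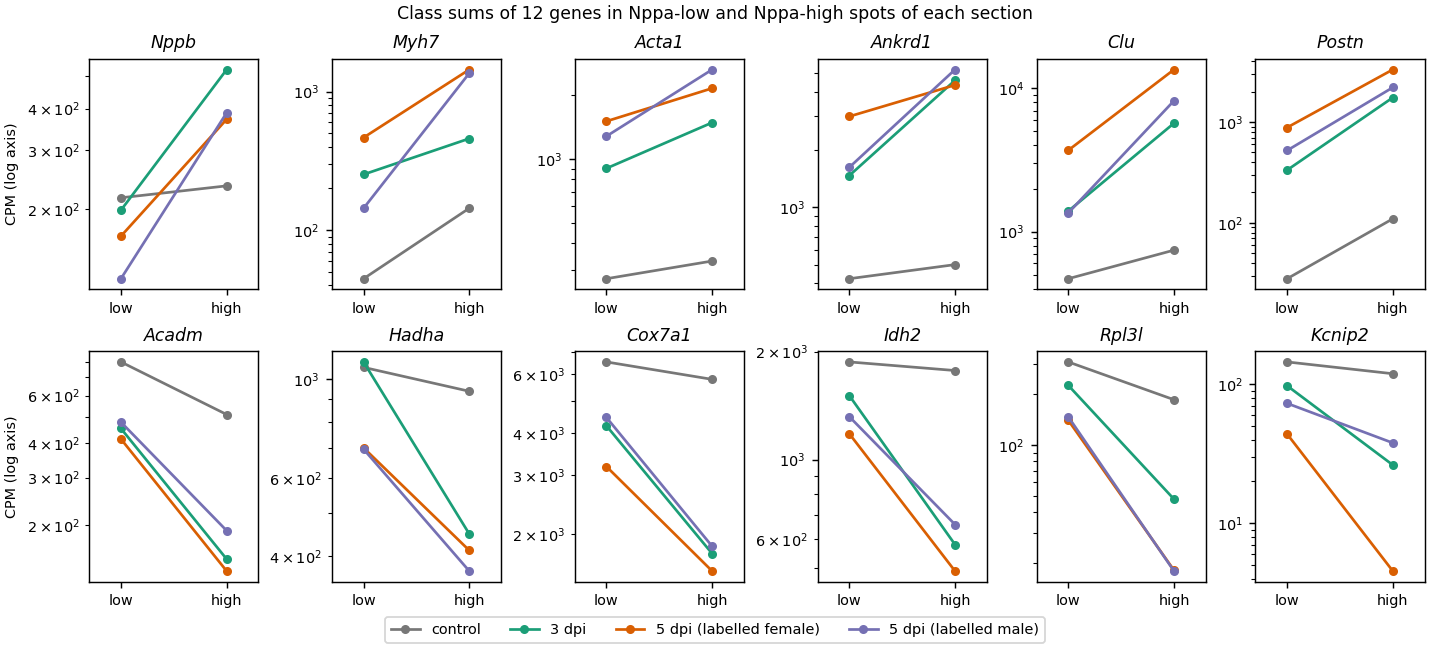
CPM (log axis) in the summed Nppa-low and Nppa-high spots of each section for 12 genes, 1 line per section. The upper row (Nppb, Myh7, Acta1, Ankrd1, Clu, Postn) runs upward in 4 of 4 sections and the lower row (Acadm, Hadha, Cox7a1, Idh2, Rpl3l, Kcnip2) downward, and in the lower row the control (grey) is the highest line at the high class and the flattest.

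Stress and stretch genes followed. Of 12 border stress genes and chaperones, 7 were higher and 0 lower (median 0.58), and 3 were higher without 3 dpi, 4 without 5 dpi female and 3 without 5 dpi male. Clu, a secreted chaperone, had 743 and 469 CPM in high and low spots of the control, 5716 and 1391 CPM at 3 dpi, 13533 and 3695 CPM in the 5 dpi female section, and 8202 and 1350 CPM in the 5 dpi male section (1.70, SE 0.21, edgeR quasi-likelihood, Benjamini-Hochberg adjusted p = 2.12e-05). Sprr1a, a small proline-rich protein induced by wall stress, had 0 UMIs in both classes of the control and 566 against 57.1, 440 against 140 and 690 against 36.8 CPM in the 3 infarcted sections (2.91). Xirp2, of the intercalated disc, rose by 0.996, Des, the muscle intermediate filament, by 0.63, Hspb1 by 0.62 and Fhl1 by 0.54, whereas Cryab and Csrp3, both abundant in all muscle, had 0.12 and −0.01 and did not pass. Of the stretch and hypertrophy signals, 4 of 5 tested were higher (median 1.10): the growth factor-like Ccn1 (1.23) and Ccn2 (1.78), the calcineurin inhibitor Rcan1 (0.88) and Tgfb2 (1.10). Of the immediate early genes, Ier2 was higher (0.73), though not without either 5 dpi section or with DESeq2, and 4 others tested did not pass.

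The fall in energy genes was broad. Of 17 fatty acid oxidation genes tested, 0 were higher and 16 lower (median −0.98). Acadm, the medium-chain acyl-CoA dehydrogenase, had 511 and 797 CPM in high and low spots of the control, 150 and 454 CPM at 3 dpi, 136 and 416 CPM in the 5 dpi female section, and 191 and 479 CPM in the 5 dpi male section. The high class was lower in 4 of 4 sections, and the control's high spots still had more than the low spots of any infarcted section (−1.36, SE 0.17, edgeR quasi-likelihood, Benjamini-Hochberg adjusted p = 1.51e-05). Eci1, Hadh, Etfdh and Plin5, the lipid droplet coat of oxidative muscle, had −1.47, −1.22, −1.15 and −1.22, and Pdk4, a brake on glucose oxidation, −1.96. Slc27a1, a fatty acid carrier, did not pass (−0.49).

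All 20 nuclear respiratory chain genes on the list were tested and were lower (median −0.79), as were all 8 of the citric acid cycle (median −0.75). Cox7a1, a heart and muscle subunit of complex IV, had 5797 and 6536 CPM in high and low spots of the control, 1748 and 4212 CPM at 3 dpi, 1550 and 3182 CPM in the 5 dpi female section, and 1838 and 4461 CPM in the 5 dpi male section. It was near level in the control and fell most of the 20 (−1.06, SE 0.18, edgeR quasi-likelihood, Benjamini-Hochberg adjusted p = 0.000738). Of the 20, 9 were lower without the 5 dpi female section and 10 without the 5 dpi male section, and of the 8, 4 were lower without the 5 dpi female section. The control was the flattest section for the sums of these lists: its respiratory chain sum was 0.90 times the low class's in the high class, against 0.55, 0.56 and 0.58 at 3 dpi and in the 5 dpi female and male sections, and for fatty acid oxidation the ratios were 0.84, 0.46, 0.48 and 0.54. RNA made in mitochondria went the same way, at 35.9%, 26.2%, 25.5% and 18.0% of UMIs in the high spots and 40.7%, 39.8%, 43.4% and 29.2% in the low spots of the control, 3 dpi, 5 dpi female and 5 dpi male sections. The difference was −11.9 ± 5.47 percentage points (SD, n = 4), lower in 4 of 4 sections (exact two-sided sign-flip p = 0.13, the smallest that 4 sections allow).

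In glycolysis, different forms of the same enzymes went opposite ways. Of 17 genes tested, 4 were higher and 5 lower (median −0.07), but these calls were few with less data: 1 was higher with any 1 infarcted section left out, and 3 were lower without 3 dpi or 5 dpi female and 2 without 5 dpi male. Eno1 (0.71), Pfkp (0.79), Pgam1 (0.48) and the glucose carrier Slc2a1 (0.82), forms used by many tissues, were higher. Eno3 (−0.93), Pfkm (−0.83) and Pgam2 (−0.59), the muscle forms of the same enzymes, were lower, with Ldhb (−0.71) and the insulin-dependent carrier Slc2a4 (−0.61). Eno1 had 103 against 95.6 CPM in the control and 359 against 158 CPM in the 5 dpi male section, while Eno3 had 1590 against 1732 and 699.6 against 1620 CPM.

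Contraction and excitation genes fell in part. Of 10 calcium cycling genes tested, 0 were higher and 4 lower: Hrc (−1.32), Atp2a2, the calcium pump of the sarcoplasmic reticulum (−0.81), Trdn (−0.66) and Asph (−0.57). Without the control 8 were lower, and without either 5 dpi section 1. Of 11 channels and connexins, 4 were lower, all potassium channel genes, and 1 was lower without 3 dpi or without 5 dpi male. The 4 were Kcnd2 (−1.76) and its partner Kcnip2 (−1.12), which carry the transient outward current, Kcnh2 (−0.98) and Kcnj11 (−0.71). Kcnd2 was sparse, at 3.14 to 9.06 CPM in high and 15.3 to 20.3 CPM in low spots. It passed the low-count filter through the low spots only. Of 12 further sarcomere genes 5 were lower and 0 higher (median −0.39), Myoz2 most (−0.80), with 8 lower without the control, 2 without 3 dpi and 1 without either 5 dpi section. Of 11 cardiac transcription factors tested, Ppargc1a, the coactivator of mitochondrial genes (−1.47), Esrra, its partner (−0.65), and Mef2a (−0.64) were lower and 0 were higher, with 1 lower without 3 dpi or 5 dpi female and 0 without 5 dpi male. With DESeq2 the lower genes were 2 for calcium cycling, 1 for channels, 2 for the sarcomere and 0 for transcription factors, and at a muscle limit of 0.75 they were 2, 0, 2 and 0. Gata4, Nkx2-5 and Tead1, factors of the motif families named above, had −0.17, −0.32 and −0.26 and did not pass.

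Among all genes, those with the highest changes and at least 50 CPM in a class were named by rank. Among the 12 highest, taken from 277 past the test and higher in 4 of 4 sections, were Thbs4 (2.62), Timp1 (2.05), Postn (1.97), Cilp (1.93), Fn1 (1.85), Col16a1 (1.81), Ms4a7 (1.80), Ccn2 (1.78), Myh7 (1.74) and 2200002D01Rik (1.70). Thbs4, a matricellular protein of stressed heart, had 9.41 and 4.92 CPM in high and low spots of the control, 110 and 15.9 CPM at 3 dpi, 344 and 70.4 CPM in the 5 dpi female section, and 311 and 27.0 CPM in the 5 dpi male section. The 12 lowest, from 352, were Ccl21a (−2.22), Lrtm1 (−2.19), Rpl3l (−1.93), Ttll1 (−1.84), Eci1 (−1.47), Ech1 (−1.42), Acadm (−1.36), Acaa2 (−1.36), Lrrc39 (−1.31), Hadh (−1.22), Plin5 (−1.22) and Mlf1 (−1.21). Ccl21a had only 10, 6, 0 and 3 UMIs in the high spots of the control, 3 dpi, 5 dpi female and 5 dpi male sections. In the control its 95% counting intervals overlapped, 15.0 to 57.7 CPM in high and 39.0 to 56.6 CPM in low spots. Rpl3l, the muscle form of a ribosomal protein, had 185 and 309, 47.7 and 225, 18.1 and 140, and 17.9 and 147 CPM in the same order.

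Markers of other cell types moved with these genes. The 7 activated fibroblast markers were all higher (median 2.18), and the list summed to 201 to 6694 CPM in high and 75.5 to 1744 CPM in low spots. In the control, Cthrc1 had 0 UMIs in both classes and Lox, Tnc and Col12a1 had 0 in the high class. Of 7 fibroblast markers tested 3 were higher, the collagens Col1a1 (1.49), Col1a2 (1.47) and Col3a1 (1.08), while Dcn (0.20), Pdgfra (0.34) and Dpt (0.21) did not pass, and the 8 genes of that list summed to 1831 to 8729 CPM against 1117 to 3848 CPM. Of 7 macrophage markers tested C1qb (0.50), Lyz2 (0.43) and C1qa (0.41) were higher, with sums of 1138 to 2783 against 826 to 1873 CPM, but 0 passed without any 1 of the infarcted sections, with DESeq2 or with no filter on low counts. Of 6 mural markers tested Tagln (1.34) and Cnn1 (2.27) were higher and 0 lower, with a list median of −0.04 and list sums of 418 to 630 against 364 to 597 CPM. Rgs5 (−0.16), Kcnj8 (−0.65) and Vtn (−0.83) did not pass, and Myh11, not tested, had 53.3 against 7.80 CPM in the control and 7.16 against 11.6, 9.06 against 24.5 and 9.97 against 12.5 CPM in the infarcted sections. Without the control 2 mural markers were lower too. Of 7 endothelial markers 0 passed over the 4 sections, while 3 were lower without the control and 2 with no filter on low counts. Of 2 neutrophil markers 0 passed, and no lymphocyte, mesothelial or Schwann cell marker reached the filter. Of 4 cycling markers tested Cdk1 was higher (0.84), though not without 3 dpi, without 5 dpi male or with DESeq2. The part of these cell types in the changes above was not tested.

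The 4 globin genes, which mark blood (Hba-a1, Hba-a2, Hbb-bs and Hbb-bt), were lower (−0.98, −1.003, −0.89 and −0.96) but changed direction between hearts, and 0 passed without 3 dpi, without 5 dpi female or with DESeq2 and 1 without 5 dpi male. They summed to 13519 CPM in high and 8133 CPM in low spots of the control, and to 2557 and 7233, 10120 and 31873, and 9906 and 16851 CPM in the 3 dpi, 5 dpi female and 5 dpi male sections. They were higher in the high class in the control and lower in it in the 3 infarcted sections.

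The class effect was then compared between infarcted and healthy muscle, as the interaction of class and infarction in the same model, where the healthy side is 1 heart without a replicate, so that the spread behind these p-values comes from the 3 infarcted sections. Of 6750 genes, 101 (1.5%) differed, 6 with a larger value in the infarcted hearts and 95 with a smaller one (DESeq2 called 19). Among those with at least 50 CPM in a class, the 5 with a positive difference were Clu (1.43), Xirp2 (1.38), Nppb (1.22), Sparc (0.78) and Des (0.78). Xirp2, a filament binding protein of the intercalated disc, had 144 against 149 CPM in high and low spots of the control and 680 against 222, 820 against 420 and 580 against 185 CPM in the infarcted sections. Within the same CPM limit, the 5 with the largest negative difference were Ces1d (−3.04), C3 (−2.89), Gsn (−2.53), Tnxb (−2.53) and Ttll1 (−2.53). Gsn, gelsolin, an actin-severing protein abundant in fibroblasts, had 3314 against 1353 CPM in the control and 334 against 1201, 358 against 812 and 446 against 633 CPM in the infarcted sections, so its order turned (interaction SE 0.26, edgeR quasi-likelihood, Benjamini-Hochberg adjusted p = 5.37e-08, with DESeq2 adjusted p = 0.136). Of the 10 named genes only Clu and C3 passed with DESeq2, and Clu, C3, Gsn and Tnxb at a muscle limit of 0.75. All 4 globins were among the 101, from −1.94 for Hbb-bt to −2.33 for Hba-a2. Myh7 was not, with an interaction of 0.17.

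Markers of the inner wall were measured beside the control's high spots, which lay deep in the section. Endocardial cells line the chambers, and Purkinje fibres of the conduction system run beneath them. The 7 endocardial markers, of which 7 had more in the high class of the control, 1 at 3 dpi, 4 in the 5 dpi female and 5 in the 5 dpi male section, summed to 273 CPM in high and 98.5 CPM in low spots of the control, against 90.7 and 125 CPM at 3 dpi, 118 and 181 CPM in the 5 dpi female section, and 136 and 89.4 CPM in the 5 dpi male section. Cytl1 had 25 UMIs in the control's high spots (78.4 CPM, 95% interval 50.7 to 116) and 18 in its low spots (7.39 CPM, 4.38 to 11.7), and Npr3, the clearance receptor, 8 UMIs (25.1 CPM, 10.8 to 49.4) and 4 (1.64 CPM, 0.447 to 4.20). In the infarcted sections Npr3 had 0 to 1 UMIs in the high spots. The 8 conduction markers summed to 132 against 75.1 CPM in high and low spots of the control, and to 129 against 96.2, 145 against 92.9 and 185 against 122 CPM in the 3 dpi, 5 dpi female and 5 dpi male sections, with 7, 5, 5 and 5 of the 8 higher in the high class. Most of these UMIs were of Kcne1 (354 UMIs in all 8 sums) and Irx3 (254), and Irx3 had 28.2 against 29.1, 31.0 against 37.6, 45.3 against 34.7 and 27.9 against 33.5 CPM. Cntn2, a marker of Purkinje fibres, was sparse and had 3 UMIs in control high spots and 0 in low spots, and 5 against 0, 1 against 2 and 4 against 1 in the 3 dpi, 5 dpi female and 5 dpi male sections. Neither Cytl1, Npr3 nor Cntn2 passed the filter, and of the tested endocardial and conduction markers (Vwf, Emcn, Irx3, Kcne1) 0 passed. With no filter on low counts 1 endocardial and 1 conduction marker were higher, and with plain CPM 1 conduction marker was. The single-section values above have no replicate check.

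The high spots of the infarcted hearts lay near the infarct, so the classes were redrawn there among muscle at least 3 steps from any infarct patch, a choice made after seeing the data, as was the next. With the 3 infarcted sections as they were, 580 of 7002 genes (8.28%) were higher and 681 (9.73%) lower, and with the far muscle alone 464 of 5805 (7.99%) were higher and 548 (9.44%) lower, 668 of the latter 1012 being among the 870 called over all 4 sections. In far muscle Nppb had 1.47, Myh7 2.17, Clu 1.78 and Ankrd1 1.31, 20 of 20 respiratory chain genes were lower (median −0.77) and 16 of 17 for fatty acid oxidation (−0.97), and Corin was lower too (−0.78). The redrawn high spots had 16028, 32593 and 28582 CPM of Nppa at 3 dpi, in the 5 dpi female and in the 5 dpi male section, and they still lay nearer the infarct than the redrawn low spots, at a mean of 4.78, 4 and 6.65 against 9.07, 8.39 and 11.1 steps. Their cardiomyocyte share was also lower, 7.69%, 6.08% and 6.36% against 10.4%, 9.39% and 9.05%.

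When both classes were narrowed to muscle spots with a cardiomyocyte share under 0.75 times the 90th percentile, the shares of the classes came closer, to 6.18% and 7.22% at 3 dpi, 5.24% and 5.39% in the 5 dpi female section, and 5.71% and 6.18% in the 5 dpi male section. The low spots were then also nearer the infarct, at 3.44, 3.74 and 7.96 steps against 1.49, 1.60 and 3.72 for the high spots. Only 39, 19 and 23 low spots were left and 2399 genes could be tested, of which 13 (0.542%) were higher and 14 (0.584%) lower, against 300 at an unadjusted p under 0.05. Among the 13 and 14 were Nppb (1.20), Myh7 (1.41), Ankrd1 (0.83), Clu (1.09), Postn (0.96), Fn1 (0.78), Lox (1.16), Cthrc1 (1.33) and Cilp (0.89) on the higher side, and Rpl3l (−2.04), Acadm (−0.97), Ech1 (−1.06), Acadvl (−0.79) and the 4 globins (−1.82 to −2.15) on the lower side. The respiratory chain went to 0 of 20 lower with a median of −0.32, the citric acid cycle to 0 of 8 (−0.38), fatty acid oxidation to 2 of 15 (−0.43), and the sarcomere list to 0 of 12 (−0.01). Border stress genes went to 2 of 12 higher (0.47), and the stretch and hypertrophy list to 0 of 4 (0.50). Fibroblast and macrophage lists, with 0 higher, had medians of −0.08 and −0.09. Fewer spots and fewer tested genes go with these counts, so a gene that no longer passed was not shown to be level.

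**Figure D5:**
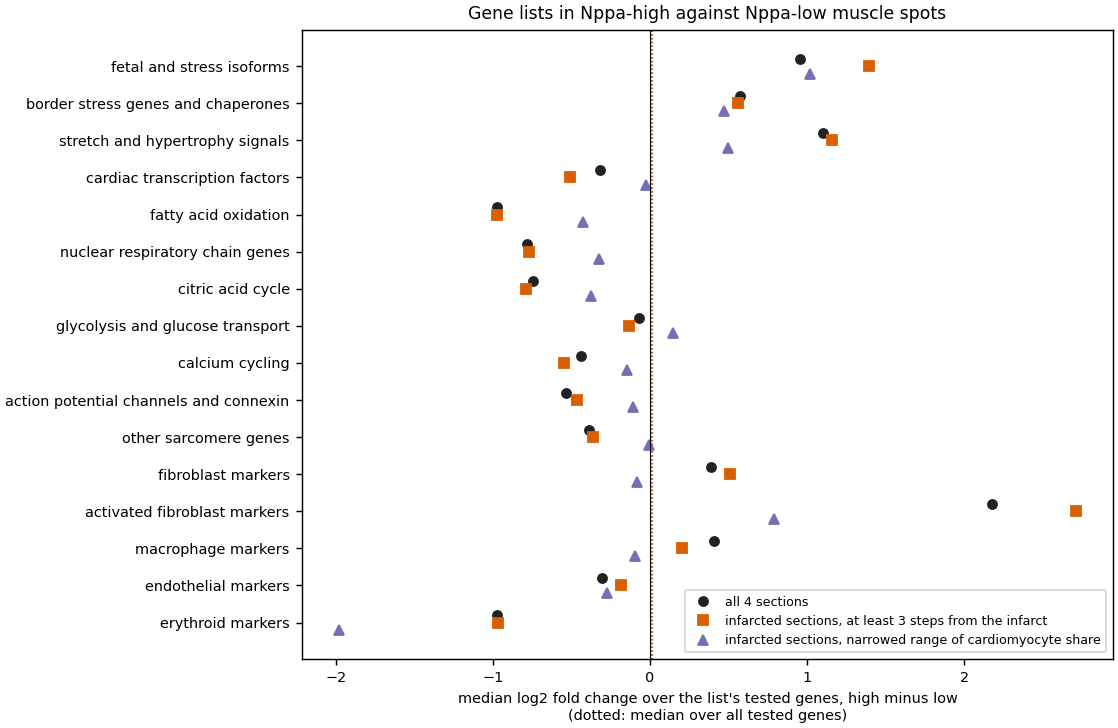
Median log2 fold change, Nppa-high minus Nppa-low, over the tested genes of each list in all 4 sections (circles), in the infarcted sections at least 3 steps from the infarct (squares) and in the infarcted sections with a narrowed range of cardiomyocyte share (triangles). The median of the fetal genes lies between 0.96 and 1.39 in each, that of the stretch list goes from 1.10 over all sections to 0.50 in the narrowed range, and those of the 3 energy lists lie between −0.98 and −0.75 over all sections and between −0.43 and −0.32 in the narrowed range.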

How the data were processed

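The authors deposited raw UMI counts per gene and spot, not normalized, and array positions with a tissue flag that they set by hand. The file headers name Space Ranger 1.3.1 as the counting software. The build is mm10 in the labels, while the methods name an Ensembl reference with an added GFP sequence. The files hold no coordinates. Counts cover 21885 genes, and 13 mitochondrial genes were left out of sums. Spots with at least 500 UMIs were kept, and 184 barcodes occur among those of all 4 sections, since a Visium barcode marks an array position. UMIs were summed per class and section. The sums were tested with edgeR 4.0.16 (limma 3.58.1, R 4.3.3), with TMM factors, the default low-count filter and section as a block, or with class by infarction as an interaction. DESeq2 1.42.0 and the settings in the closing section were alternatives. Exact sign-flip tests over sections were used for distances. On simulated data with 199 of 6428 genes changed by a log2 of 1.5, the class test recovered 83.4%, with 3.49% of calls false, and the interaction, over 6438 genes, 14.6% (9.38% false). Genes named without a list were the 12 highest and 12 lowest log2 changes past 0.05 in 4 of 4 sections with at least 50 CPM in a class, and 5 each way for the interaction. A few genes that the rule or a list names are not reported here. Members and lists were chosen with earlier results of these data known. Python 3.11.15, NumPy 2.4.6, pandas 2.3.3 and matplotlib 3.10.9 were used. Counting intervals cover counting error only.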

Additional observations from a re-analysis of the deposited data

Results flagged for a closer look

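The class effect differed between infarcted and control muscle for 101 genes by the interaction test, with 1 control section on one side. The 10 named genes had interaction log2 values of 1.43 (Clu), 1.38 (Xirp2), 1.22 (Nppb), 0.78 (Sparc), 0.78 (Des), −3.04 (Ces1d), −2.89 (C3), −2.53 (Gsn), −2.53 (Tnxb) and −2.53 (Ttll1). With DESeq2 2 of the 10 passed (Clu and C3), and at a muscle limit of 0.75 4 passed (Clu, C3, Gsn and Tnxb).

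Nppa was also found outside the muscle spots. Kept spots under the muscle limit had 11874 CPM at 3 dpi (909 spots), 6743 CPM in the 5 dpi female section (1117 spots) and 10173 CPM in the 5 dpi male section (694 spots), where all muscle of the control had 388 CPM. Among them 147, 47 and 97 spots reached the level of the poorest Nppa-high muscle spot of their section, and 138, 46 and 95 of these lay in infarct patches. At 5 dpi, 31 of the 47 and 63 of the 97 were within 2 steps of the enclosed area. Their cardiomyocyte share was 3.80%, 2.74% and 2.56%. The 623 spots of the 5 dpi male section not flagged as tissue had 9010 CPM of Nppa, and 17 of them reached the level of the high class, each inside the enclosed area.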

How the results depend on the processing

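The count of 870 genes was 0 without the section block (939 at an unadjusted p under 0.05 in edgeR), 405 with DESeq2, 452 with a muscle limit of 0.75, 462 with distance band as a term (3017 genes tested) and 27 in the narrowed cardiomyocyte share. Leaving out 1 section gave 357 (without 5 dpi male) to 1261 (without the control), with 474 without 3 dpi and 399 without 5 dpi female. The interaction count of 101 was 19 with DESeq2, 233 with the top 25% against the lower 25%, 33 with the top 5% and 15 with a muscle limit of 0.75. Other settings kept both counts within 1.5 times. The difference in steps to the infarct ranged from −6.42 to −5.75 with 1 section left out, and that in mitochondrial percent from −14.3 to −9.88, and the latter was −6.64 at a muscle limit of 0.75. Steps to the tissue edge ranged from −0.0913 (without the control, opposite to the 1.28 over all) to 2.10, and were 2.24 with the top 25% against the lower 25% and 2.22 at a muscle limit of 0.75, each with 4 of 4 sections positive, and 1.01 with the top 5%, with 2 of 4 positive. Among 120 called genes of the lists and named genes, Fhl1 turned to −0.0751 at a muscle limit of 0.75, and in the narrowed share Acta1 turned to −0.0211, C1qa to −0.0908, C1qb to −0.11, Lyz2 to −0.11, Tagln to −0.60 and Myom1 to 0.17. The cause was not tested. Of the 120, 73 passed without 5 dpi female, 74 without 5 dpi male, 86 without 3 dpi, 119 without the control and 92 with DESeq2. The classes were paired by section in the model. Between hearts, no paired analysis was possible because replicate numbers only name sections within a group. The control low class, with 0 Nppa UMIs in each spot, cannot be split further at this depth.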
